A study of Mus musculus with 24 samples.

Results

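The D and E cyclins, the kinases they activate and the inhibitors of these kinases set the passage of a cell from G1 into S phase, and 10 of their genes were followed through mouse adrenal glands and neuroblastoma tumors. The genes were Ccnd1, Ccnd2, Ccnd3, Cdk4, Cdk6, Ccne1, Ccne2, Cdk2, Cdkn1b and Cdkn2c, chosen by name and found as 10 of the 21833 genes listed. Of these, 9 were among the 10171 genes that reached 1 FPKM (fragments per kilobase of length, scaled to library size) in at least 3 libraries and were tested. Cdk6 stayed below this level in all 24 libraries.

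Poly(A)-enriched RNA-seq libraries were made from 4 groups of mice. AG were adrenal glands of mice with the genotype CRE - (n = 3). AGM were adrenal glands without a tumor, genotype MYCN +/-, CRE + (n = 5). TI were neuroblastoma tumors with an IGF2BP1 transgene and CRE + (n = 8, of which 7 were IGF2BP1 +/+ and 1 was IGF2BP1 +/-, and 1 was labelled as an adrenal gland tumor). TIM were neuroblastoma tumors labelled IMP1/MYCN, CRE + (n = 8, of which 2 were labelled adrenal gland and 1 spine), IMP1 being another name of IGF2BP1. Both transgenes sat in the Rosa26 locus behind a stop cassette that Cre removes. Cre was driven by the Dbh promoter, which is active in noradrenergic cells of the sympathetic lineage. The authors' genotyping found no wildtype Rosa26 locus in IGF2BP1/MYCN mice, so TIM held 1 copy of each transgene. TIM vs TI thus compares different IGF2BP1 copy numbers as well, and the part of this was not tested. The mice shared a C57Bl6/N background, and ages were not given in the labels. The authors culled mice with MYCN alone later than homozygous IGF2BP1 mice, and IGF2BP1/MYCN mice had the shortest median survival of the tumor models. Age thus goes with group as well, and its part was not tested. AG samples belonged to run 1, AGM samples to run 2, TI samples to run 1 (6), run 2 (1) and run 3 (1), and TIM samples to run 2 (3) and run 3 (5). Since no AGM or TIM sample belonged to the run of the AG samples, run and group cannot be told apart where these were compared with AG. TIM vs TI is largely tied to run as well, since 6 of 8 TI samples but no TIM sample belonged to run 1. The value columns did not carry the sample numbers, so no run, zygosity or tumor location was assigned to a library, and libraries are named by group and place in the table.

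In G1, D cyclins bind CDK4 and CDK6, E cyclins bind CDK2, and the active kinases phosphorylate the retinoblastoma protein and its relatives, which frees E2F factors to switch on S phase genes. CDKN2C (p18INK4c) binds CDK4 and CDK6 and keeps cyclin D away. CDKN1B (p27KIP1) binds cyclin-CDK complexes, inhibits CDK2 and is removed largely by protein degradation, so its mRNA is only part of its control. In sympathetic precursors and in neuroblastoma, cyclin D1 is the D cyclin most often noted for high levels, and MYC family proteins bind E-boxes in promoters of cell cycle genes.

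Behind the values, 12334076 to 23683176 reads per library were recovered once 126 genes with a value above 1000 FPKM in any library were set aside. These 126 genes took 64.5% to 98.6% of all recovered reads in each AGM and TIM library, but 0.217% to 2.21% in AG and TI, so that this share separated the groups with MYCN from the others. With these genes, totals were 116740738 to 1170004708 reads in AGM and 58530450 to 888626365 in TIM, against 12468968 to 21353172 in AG and TI. Values of single genes in AGM and TIM are to be read with this in mind. No G1 gene was among them, and no pair of libraries was identical. Nothing in the labels says whether libraries of a group came from separate litters or cultures, so p-values measure the spread between these samples. The 10 adrenal cortex markers summed to between 707 and 731 FPKM in AG and between 4370 and 5468 FPKM in AGM, but at most to 16.7 FPKM in TI tumors and 13.1 FPKM in TIM tumors. Without Cyp21a1 and Hsd3b1, which belong to the 126 genes, these sums were at most 354 FPKM in AG and 2328 FPKM in AGM. For the 10 chromaffin and sympathetic markers, sums between 141 and 203 FPKM were found in AG, between 1288 and 2165 FPKM in AGM, between 208 and 1795 FPKM in TI tumors and between 219 and 4718 FPKM in TIM tumors. Without Th and Chga, also among the 126, they reached at most 109 FPKM in AG, 626 in AGM, 634 in TI tumors and 1562 in TIM tumors. The 6 adipocyte markers lay between 91.8 and 749 FPKM in AG glands and between 305 and 1219 FPKM in AGM glands, against at most 2.27 FPKM in TI tumors and 52.2 FPKM in TIM tumors. Sums of the 7 endothelial markers were between 14.6 and 19.8 FPKM in the glands, between 2.50 and 27.1 FPKM in TI tumors and between 1.33 and 10.8 FPKM in TIM tumors. The 9 lymphocyte markers lay at 0.138 to 3.24 FPKM in all libraries. No marker was at 0 in every library of a group. Tumors thus differed from glands in markers of some cell types, such as cortex and adipocytes, as well as in genotype. In bulk RNA fewer cells of a type and less RNA per cell cannot be told apart, and the part of this in the differences between glands and tumors was not tested.

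Levels per gene length ranked differently in glands and tumors. In AG, Ccnd1 was highest (mean 21.7 FPKM), followed by Ccnd3 (13.6), Ccnd2 (10.98), Cdk4 (10.8), Cdkn2c (8.88), Cdk2 (1.19), Cdkn1b (1.14), Ccne1 (0.405), Cdk6 (0.302) and Ccne2 (0.119). Libraries of Ccnd2 and Cdk4, of Cdk2 and Cdkn1b, and of Ccne1 and Cdk6 overlapped in this order. In TI the order was Ccnd1 (109.6), Cdk4 (21.9), Cdkn1b (6.76), Cdkn2c (4.28), Ccne1 (1.92), Ccnd3 (1.05), Ccne2 (0.786), Cdk2 (0.713), Ccnd2 (0.257) and Cdk6 (0.0559). In TIM, Cdkn1b (9.65) and Ccne1 (4.003) again stood behind Ccnd1 (44.7) and Cdk4 (18.6), whereas Cdkn2c was at 0.953 FPKM. Ranges of neighbouring genes overlapped throughout the order in TIM, and throughout that in TI except between Cdk4 and Cdkn1b. In TIM library 8, Cdk4 (37.8 FPKM) was above Ccnd1 (29.5 FPKM).

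**Figure D1:**
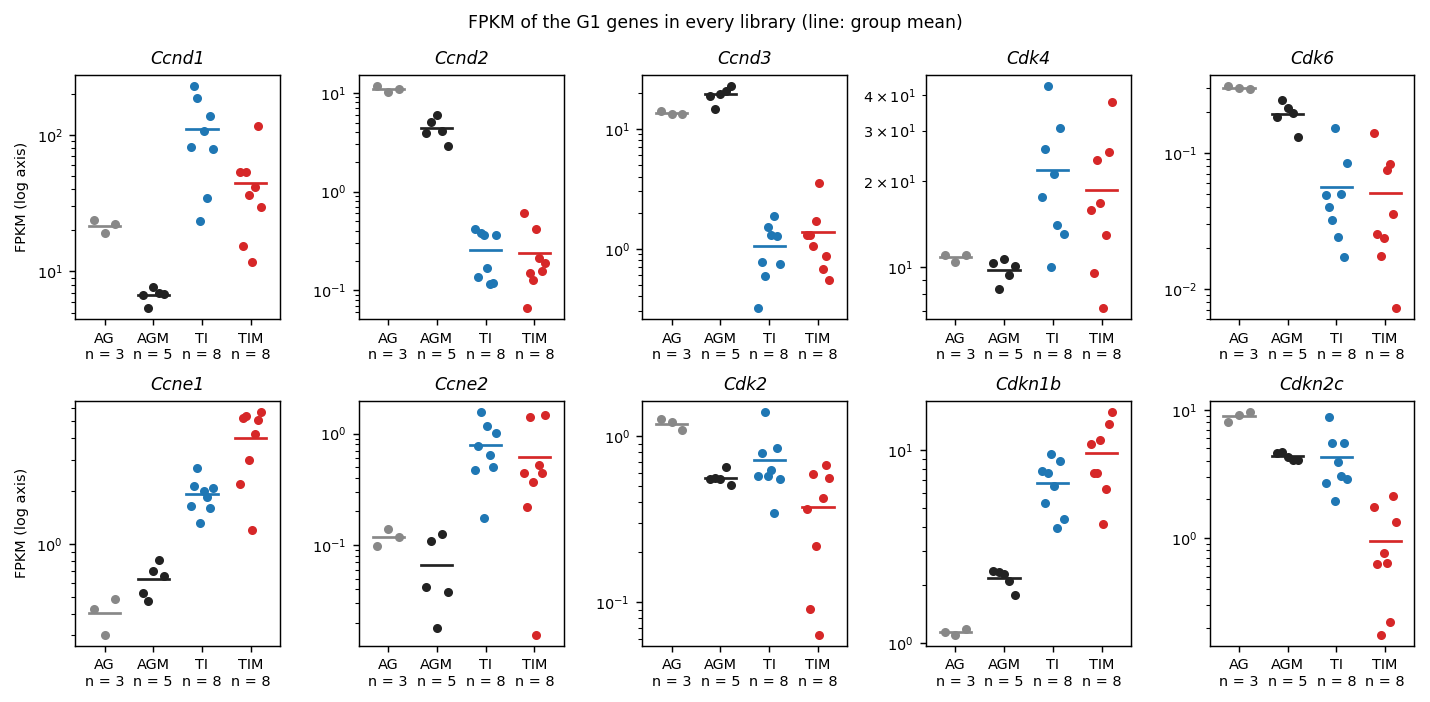
FPKM of the 10 G1 genes on log axes, with 1 point per library (AG n = 3, AGM n = 5, TI n = 8, TIM n = 8) and a line at the group mean. Ccnd2 and Ccnd3 lay lower in every tumor than in any gland, Ccne1 and Cdkn1b higher, and Cdkn2c in TIM lay below every gland.

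Differences were tested with limma on log2(FPKM + 1), and an FDR (Benjamini-Hochberg over all 10171 genes) below 0.05 was called. This scale understates changes of genes with low values. In TI vs AG, 4 of the 9 tested G1 genes were higher in tumors (Ccnd1, Ccne1, Ccne2 and Cdkn1b), against 24.6% of all tested genes, and 4 were lower (Ccnd2, Ccnd3, Cdk2 and Cdkn2c), against 27.7%. In TIM vs AG, 2 were higher (Ccne1 and Cdkn1b; 22.5% of all genes) and 4 were lower (28.5%). In AGM vs AG, none was higher (14.6%) and 3 were lower (14.0%), namely Ccnd2, Cdk2 and Cdkn2c. In TIM vs TI, 1 was higher, Ccne1 (10.0%), and 3 were lower, Ccnd1, Cdk2 and Cdkn2c (12.9%). In TIM vs AGM, 4 were higher (31.9%) and 3 were lower (33.4%). The median log2 fold change of the 9 genes was 0.64 in TI vs AG, 0.46 in TIM vs AG, -0.14 in AGM vs AG, -0.17 in TIM vs TI and 0.53 in TIM vs AGM, with rises and falls in 1 small group of genes. Over all genes it was between -0.01 and 0.03. Ccne1 and Ccne2 passed the filter through tumors alone and Ccnd2 through glands alone, and Cdk2 reached 1 FPKM in the 3 AG libraries and 1 TI library, so these genes had to differ to some degree.

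The direction over all genes depended on scaling. When FPKM were recomputed from the reads outside the 126 highest genes, the median of all tested genes moved to -0.41 in AGM vs AG, -0.15 in TIM vs AG, 0.31 in TIM vs AGM and -0.12 in TIM vs TI, against -0.02 in TI vs AG. Higher and lower calls then numbered 974 and 3630 in AGM vs AG (1488 and 1420 as deposited), 816 and 1879 in TIM vs TI (1017 and 1315), and 4283 and 2656 in TIM vs AGM (3241 and 3398). In TIM vs AG limma-voom on the reads gave 1525 and 3311 (2293 and 2897). Of the 45 fold changes of G1 genes in these 5 contrasts, none changed its direction with recomputed FPKM.

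**Figure D2:**
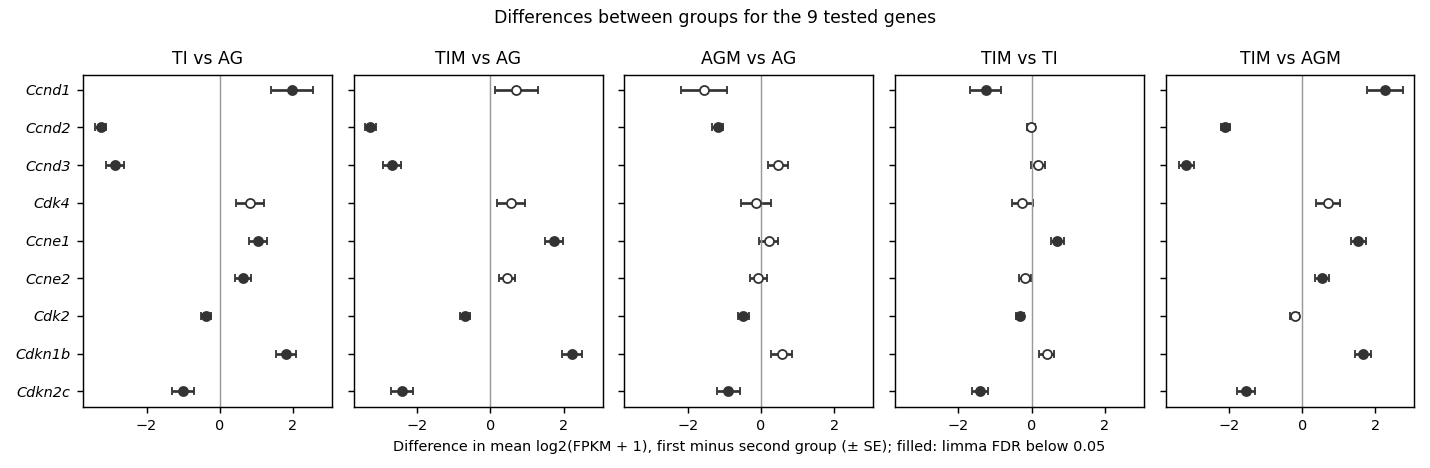
Differences in mean log2(FPKM + 1) between groups (x axis, first minus second group) for the 9 tested G1 genes (y axis), with bars of 1 standard error and filled points at a limma FDR below 0.05. Ccnd2 and Ccnd3 have values between -3.28 and -2.098 in the 3 contrasts of tumors with glands, and Cdkn2c is the 1 gene past the threshold and lower in all 5 contrasts.

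The D cyclins went from a mixture of 3 genes in glands to mostly Ccnd1 in tumors. Ccnd1 (ENSMUSG00000070348, GRCm39 chromosome 7, 144483668 to 144493662, minus strand), which encodes cyclin D1, was at 23.6, 19.3 and 22.1 FPKM in AG and at 6.74, 5.37, 7.70, 6.93 and 6.83 FPKM in AGM. TI ranged from 23.6 over a median of 94.0 to 229 FPKM, and TIM from 11.7 over 38.9 to 116 FPKM. Of the TI libraries 7 of 8 were above all AG libraries and library 4 lay just below the highest of them, every tumor was above every AGM library, and TIM spread on both sides of AG. Mean Ccnd1 was 5.06-fold higher in TI than in AG (log2 fold change 1.97 ± 0.58 SE, limma FDR 0.00656) and 6.66-fold higher in TIM than in AGM (2.27 ± 0.49, limma FDR 0.000349). TIM vs AG gave 0.71 ± 0.58 (limma FDR 0.319). TIM was lower than TI by 1.26 ± 0.43 on the log2 scale (limma FDR 0.0372), but this call was lost with a spread taken from TI and TIM alone (limma FDR 0.109) and when any 1 of TI libraries 1, 2, 3, 5 and 7 or TIM libraries 2, 4, 5 and 8 was left out (limma FDR 0.0509 to 0.0836). The 3.23-fold lower mean in AGM than in AG missed the threshold (-1.56 ± 0.62, limma FDR 0.0648), although the groups did not overlap. It passed with the spread of AG and AGM alone (limma FDR 3.22e-05) and with recomputed FPKM (-2.13, or -1.72 relative to all genes, limma FDR 0.0104).

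Ccnd2 (ENSMUSG00000000184, chromosome 6, 127102125 to 127129156, minus strand) encodes cyclin D2. It was at 11.8, 10.1 and 11.03 FPKM in AG and 3.89, 5.03, 5.99, 4.09 and 2.87 FPKM in AGM. In TI it ranged from 0.115 to 0.416 FPKM (median 0.265) and in TIM from 0.0660 to 0.608 FPKM (median 0.173). The 3 levels, AG, AGM and tumors, did not overlap, and the tumor libraries held 58 to 606 reads of the gene, so it was low but counted. Mean Ccnd2 was 42.7-fold lower in TI and 45.5-fold lower in TIM than in AG (log2 fold changes -3.26 ± 0.14 and -3.28 ± 0.14, limma FDR 7.14e-15 and 5.53e-15). It was 18.1-fold lower in TIM than in AGM (-2.098 ± 0.12, limma FDR 4.7e-13) and 2.51-fold lower in AGM than in AG (-1.18 ± 0.15, limma FDR 3.0e-06). TI and TIM differed by -0.02 ± 0.10 (limma FDR 0.913). Ccnd2 passed the filter through glands alone, so it had to be lower in tumors to some degree, and its tests of tumors against glands carry that limit.

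Ccnd3 (ENSMUSG00000034165, chromosome 17, 47815767 to 47910624, plus strand), the gene of cyclin D3, was at 14.2, 13.4 and 13.2 FPKM in AG and 18.9, 14.6, 19.7, 20.6 and 22.9 FPKM in AGM. TI ranged from 0.319 over 1.02 to 1.87 FPKM and TIM from 0.546 over 1.18 to 3.52 FPKM. No tumor reached a gland. The mean was 12.9-fold lower in TI than in AG (-2.87 ± 0.25, limma FDR 1.38e-09), 9.90-fold lower in TIM than in AG (-2.70 ± 0.25, limma FDR 4.03e-09) and 14.1-fold lower in TIM than in AGM (-3.16 ± 0.21, limma FDR 6.95e-12). Unlike Ccnd2, Ccnd3 was 1.42-fold higher in AGM than in AG by its means, which missed the threshold (0.47 ± 0.27, limma FDR 0.201).

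As FPKM are per gene length, the 3 genes can be added. Their sum was 46.2 ± 3.42 FPKM in AG (SD, n = 3), 30.4 ± 3.35 in AGM (n = 5), 110.9 ± 71.0 in TI (n = 8) and 46.3 ± 32.4 in TIM (n = 8). Ccnd1 made up 46.8% ± 1.51 of the sum in AG and 22.1% ± 0.903 in AGM, but 97.7% ± 2.61 in TI and 93.8% ± 8.01 in TIM. Ccnd2 held 23.7% ± 0.0890 in AG, 14.6% ± 4.47 in AGM, 0.401% ± 0.447 in TI and 0.754% ± 0.824 in TIM. Ccnd3 was the main D cyclin mRNA in AGM (63.3% ± 4.87), against 29.4% ± 1.60 in AG, 1.90% ± 2.28 in TI and 5.398% ± 7.27 in TIM. Sums of TIM and AG were thus alike in their means while their makeup differed, and these shares were not tested. In 15 of the 16 tumors Ccnd1 held 91.9% to 99.6% of the sum. The exception was TIM library 5, with 74.8% Ccnd1 and 22.5% Ccnd3. This library also had the most Ccnd3 of any tumor (3.52 FPKM), and its summed Schwann, adipocyte and adrenal cortex markers (42.4, 52.2 and 13.1 FPKM) were the highest of the 8 TIM libraries. The part of these markers in its Ccnd3 level was not tested.

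**Figure D3:**
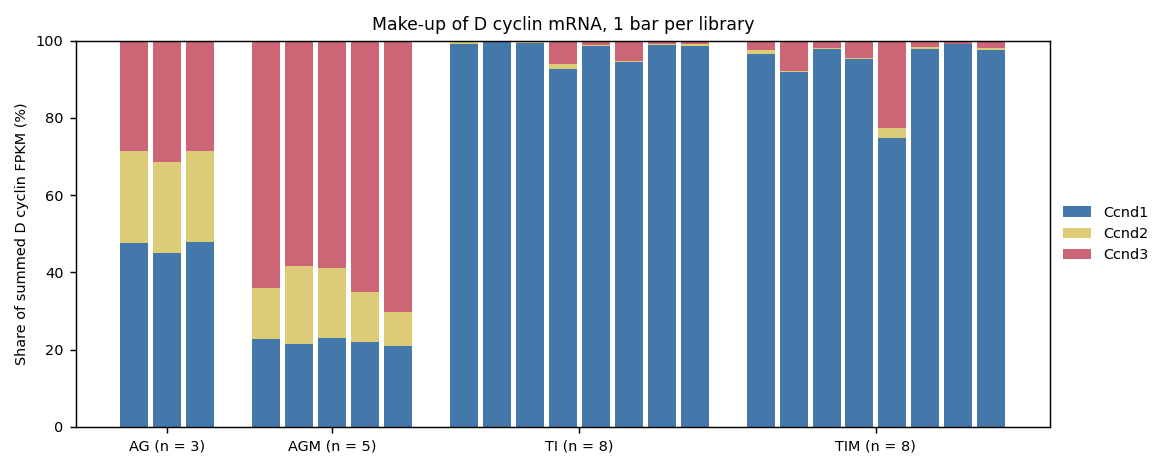
Share (%) of Ccnd1, Ccnd2 and Ccnd3 in their summed FPKM, with 1 stacked bar per library grouped as AG (n = 3), AGM (n = 5), TI (n = 8) and TIM (n = 8). Ccnd3 is the widest band in every AGM library and Ccnd1 in every tumor, with 74.8% in TIM library 5 as the lowest tumor value.

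Of the partner kinases of the D cyclins, Cdk4 passed the threshold in none of the 5 contrasts and Cdk6 fell in tumors. Cdk4 (ENSMUSG00000006728, chromosome 10, 126895180 to 126903789, plus strand) was at 10.97, 10.4 and 10.98 FPKM in AG and 10.3, 8.33, 10.7, 9.38 and 10.1 FPKM in AGM. TI ranged from 10.01 over 19.3 to 43.1 FPKM and TIM from 7.16 over 16.2 to 37.8 FPKM. The means were 2.03-fold and 1.72-fold higher than in AG, but the tumors overlapped the glands and neither difference passed (TI vs AG 0.82 ± 0.38, limma FDR 0.0767; TIM vs AG 0.57 ± 0.38, limma FDR 0.221). Without TI library 4, which held the least Cdk4 in TI, TI vs AG passed (0.95, limma FDR 0.0357). TIM vs AGM gave 0.71 ± 0.32 (limma FDR 0.0579) and passed with recomputed FPKM (1.06, or 0.75 relative to all genes, limma FDR 0.0116) and without TIM library 2 or TIM library 5 (0.81 and 0.87, limma FDR 0.0328 and 0.0155). AGM and AG differed by -0.14 ± 0.41 (limma FDR 0.849).

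Cdk6 (ENSMUSG00000040274, chromosome 5, 3391485 to 3581008, plus strand) was at 0.312, 0.297 and 0.296 FPKM in AG, 0.184, 0.246, 0.212, 0.197 and 0.131 FPKM in AGM, 0.0172 to 0.151 FPKM in TI (median 0.0444) and 0.00722 to 0.141 FPKM in TIM (median 0.0304). The tumors held 9 to 230 reads of it per library and the AG glands 438 to 468. Being below the filter, it was compared as reads per 1000000 reads outside the 126 highest genes (RPM), by exact two-sided permutation tests with adjustment over 5 contrasts. It fell from 25.7 ± 1.18 RPM in AG (SD, n = 3) to 4.69 ± 3.53 in TI and 3.86 ± 3.48 in TIM (n = 8 each; exact permutation test, adjusted p = 0.0202 for both), and to 12.2 ± 3.78 in AGM (n = 5; exact permutation test, adjusted p = 0.0446). TIM was below AGM (exact permutation test, adjusted p = 0.0202), and TIM and TI differed by -0.835 RPM (exact permutation test, adjusted p = 0.635). With all recovered reads as library size, TIM vs TI passed (exact permutation test, adjusted p = 0.000777) and TIM vs AGM did not (exact permutation test, adjusted p = 0.261). Cdk4 thus made up nearly all of the CDK4 and CDK6 kinase mRNA, with 97.3% ± 0.0850 in AG, 98.0% ± 0.577 in AGM, 99.6% ± 0.481 in TI and 99.6% ± 0.399 in TIM.

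Promoter windows of 300 bases (250 before and 50 after a start site) were in the RefSeq promoter table for 7 of the 10 genes, with 9 windows in all. They were searched for the E-box CACGTG and for the E2F motifs TTTCCCGC, TTTCGCGC, TTTGGCGC and TTTGCCGC on both strands, the E-box being its own reverse complement and overlapping none of the E2F motifs found. An E-box was in 7.15% of the 32851 promoter windows of the table and an E2F motif in 2.265%. The windows of Ccnd3 (2), Ccne1 and Cdkn1b and the other window of Cdkn2c held neither, and that of Cdk6 held 1 E-box at -220. The Cdk4 window is printed because it held 4 E-boxes, at -172, -118, -98 and -11 from the start site, a number reached by 8 of the 32851 windows (0.02435%). It lies at chr10:126899154-126899453 on the plus strand of GRCm39, where the RefSeq sequence (build GRCm38.p6) was placed by exact match, and the E-boxes are in capitals.
Cdk4 promoter: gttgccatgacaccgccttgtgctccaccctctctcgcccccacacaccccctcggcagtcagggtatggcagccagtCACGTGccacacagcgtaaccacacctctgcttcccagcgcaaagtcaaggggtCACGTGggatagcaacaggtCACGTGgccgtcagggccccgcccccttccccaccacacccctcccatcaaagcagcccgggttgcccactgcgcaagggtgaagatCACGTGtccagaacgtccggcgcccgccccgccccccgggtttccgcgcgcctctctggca

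Of the E cyclins, Ccne1 rose in tumors of both models, most in TIM, and Ccne2 rose in TI vs AG and TIM vs AGM. Ccne1 (ENSMUSG00000002068, chromosome 7, 37797404 to 37808264, minus strand), which encodes cyclin E1, was at 0.427, 0.303 and 0.485 FPKM in AG and 0.523, 0.470, 0.697, 0.807 and 0.655 FPKM in AGM. TI ranged from 1.32 over 1.92 to 2.72 FPKM and TIM from 1.21 over 4.68 to 5.66 FPKM. All 16 tumors were above all 8 glands, and 6 of 8 TIM libraries were above every TI library. Mean Ccne1 was 4.74-fold higher in TI than in AG (log2 fold change 1.04 ± 0.24, limma FDR 0.000865), 9.88-fold higher in TIM than in AG (1.75 ± 0.24, limma FDR 2.1e-06) and 6.35-fold higher in TIM than in AGM (1.53 ± 0.20, limma FDR 8.11e-07). It was 2.09-fold higher in TIM than in TI (0.70 ± 0.18, limma FDR 0.00741), a call kept when any 1 tumor was left out. AGM vs AG gave 0.21 ± 0.26 (limma FDR 0.581). Ccne1 passed the filter through tumors alone, so it had to be higher in tumors to some degree, and its tests of tumors against glands carry that limit.

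Ccne2 (ENSMUSG00000028212, chromosome 4, 11190303 to 11204947, plus strand), the gene of cyclin E2, lay at 0.0987, 0.139 and 0.119 FPKM in AG and 0.0423, 0.109, 0.0178, 0.126 and 0.0376 FPKM in AGM. TI ranged from 0.174 over 0.703 to 1.56 FPKM and TIM from 0.0157 over 0.443 to 1.47 FPKM. Every TI library was above the glands, and so was TIM except for library 5, which held 5 reads. TI vs AG passed (0.64 ± 0.22, limma FDR 0.0190), as did TIM vs AGM (0.53 ± 0.19, limma FDR 0.0161), whereas TIM vs AG gave limma FDR 0.0859. The TI vs AG call was lost when any 1 of the 3 AG libraries was left out (limma FDR 0.0506 to 0.0595), and limma-voom passed neither (limma FDR 0.148 and 0.0968). Like Ccne1, Ccne2 passed the filter through tumors alone, so its tests of tumors against glands carry the same limit. Ccne1 made up most of the E cyclin mRNA in all groups, with 76.7% ± 7.03 in AG, 90.5% ± 6.56 in AGM, 73.0% ± 8.33 in TI and 88.3% ± 7.29 in TIM.

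Cdk2 (ENSMUSG00000025358, chromosome 10, 128533796 to 128540963, minus strand), the kinase partner of the E cyclins, went the other way. It was at 1.28, 1.21 and 1.08 FPKM in AG and 0.551, 0.555, 0.549, 0.648 and 0.505 FPKM in AGM. TI ranged from 0.342 over 0.599 to 1.40 FPKM and TIM from 0.0636 over 0.394 to 0.665 FPKM, so that 7 of 8 TI libraries and all TIM libraries were below AG. Mean Cdk2 was 3.203-fold lower in TIM than in AG (-0.69 ± 0.14, limma FDR 0.000286). As Cdk2 passed the filter mostly through AG, its tests against AG were not free of that filter. The differences TI vs AG (-0.37 ± 0.14, limma FDR 0.0311), AGM vs AG (-0.49 ± 0.15, limma FDR 0.0202) and TIM vs TI (-0.32 ± 0.10, limma FDR 0.0314) were near the threshold. The TI vs AG call did not hold when AG library 1, 2 or 3 or TI library 6 was left out (limma FDR 0.0510 to 0.103) and with recomputed FPKM (limma FDR 0.0839). AGM vs AG was lost without AG library 1 or 2 (limma FDR 0.0773 and 0.0642), and TIM vs TI without any 1 of TI libraries 2, 3 and 7 or TIM libraries 2, 4 and 5 (limma FDR 0.0574 to 0.0701). The Cdk2 window, shown because it was the only window of a G1 gene with an E2F motif, held GCGGGAAA, the reverse complement of TTTCCCGC, at -140. It lies at chr10:128540871-128541170 on the minus strand of GRCm39, with the motif in capitals.
Cdk2 promoter: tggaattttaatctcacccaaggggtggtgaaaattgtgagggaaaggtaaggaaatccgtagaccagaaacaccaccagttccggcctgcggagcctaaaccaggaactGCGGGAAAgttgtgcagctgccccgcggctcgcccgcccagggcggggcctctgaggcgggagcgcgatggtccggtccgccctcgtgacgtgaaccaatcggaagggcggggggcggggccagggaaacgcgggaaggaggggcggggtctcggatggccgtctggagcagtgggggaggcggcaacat

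The inhibitors moved in opposite directions. Cdkn2c (ENSMUSG00000028551, chromosome 4, 109517957 to 109524386, minus strand), the gene of the CDK4 and CDK6 inhibitor p18INK4c, was at 7.98, 9.05 and 9.60 FPKM in AG and 4.59, 4.65, 4.30, 4.08 and 4.03 FPKM in AGM. TI ranged from 1.93 over 3.502 to 8.73 FPKM and TIM from 0.177 over 0.702 to 2.12 FPKM. AGM lay wholly below AG and TIM wholly below AGM, whereas TI overlapped AG, AGM and TIM. Mean Cdkn2c was 9.32-fold lower in TIM than in AG (-2.42 ± 0.29, limma FDR 3.75e-07), 4.54-fold lower in TIM than in AGM (-1.53 ± 0.25, limma FDR 1.42e-05) and 4.49-fold lower in TIM than in TI (-1.42 ± 0.22, limma FDR 0.000146). TI was 2.07-fold lower than AG (-1.0 ± 0.29, limma FDR 0.00662). The 2.05-fold lower mean in AGM (-0.89 ± 0.32, limma FDR 0.0397) lost its call when AG library 1, 2 or 3 was omitted (limma FDR 0.0770 to 0.119), without any 1 of AGM libraries 1, 3, 4 and 5 (limma FDR 0.0559 to 0.0707) and with a pseudocount of 0.1 FPKM (limma FDR 0.152), and passed with recomputed FPKM (-1.46, or -1.04 relative to all genes, limma FDR 0.0199). Of the 2 windows of Cdkn2c, the one nearer the end of the gene held an E-box at 35 bases after its start site, and is shown for it. It lies at chr4:109522520-109522819 on the minus strand of GRCm39.
Cdkn2c promoter: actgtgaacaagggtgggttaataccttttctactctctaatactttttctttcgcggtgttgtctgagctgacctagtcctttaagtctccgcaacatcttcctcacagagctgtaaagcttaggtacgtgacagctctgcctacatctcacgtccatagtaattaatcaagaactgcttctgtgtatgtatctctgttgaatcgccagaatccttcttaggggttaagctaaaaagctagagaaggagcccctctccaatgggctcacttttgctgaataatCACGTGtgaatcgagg

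Cdkn1b (ENSMUSG00000003031, chromosome 6, 134897364 to 134902476, plus strand), the gene of p27KIP1, was at 1.14, 1.11 and 1.18 FPKM in AG and 2.37, 2.33, 2.29, 2.09 and 1.78 FPKM in AGM. TI ranged from 3.97 over 7.08 to 9.60 FPKM and TIM from 4.13 over 9.21 to 15.8 FPKM. AG, AGM and tumors formed 3 levels with no overlap, in the order opposite to that of Ccnd2. Mean Cdkn1b was 5.92-fold higher in TI than in AG (1.81 ± 0.27, limma FDR 6.83e-06), 8.46-fold higher in TIM than in AG (2.22 ± 0.27, limma FDR 3.88e-07) and 4.45-fold higher in TIM than in AGM (1.66 ± 0.23, limma FDR 1.56e-06). AGM vs AG missed the threshold (0.56 ± 0.29, limma FDR 0.157), except with the spread of these groups alone (limma FDR 0.000417). TIM vs TI gave 0.41 ± 0.20 (limma FDR 0.140) and passed without TIM library 5 (0.55, limma FDR 0.0335).

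Ratios of the genes to their kinases were formed after the values were seen and are given without a test. The ratio of Cdkn2c to Cdk4 had a median of 0.868 in AG, 0.435 in AGM, 0.189 in TI and 0.0558 in TIM. All TIM libraries (0.00749 to 0.111) were below all TI libraries (0.127 to 0.339), and these below AGM (0.399 to 0.558) and AG (0.727 to 0.874). The ratio of Cdkn1b to Cdk2 ran the other way, with medians of 0.913 in AG, 4.18 in AGM, 10.4 in TI and 28.9 in TIM, and TI (5.46 to 16.8) and TIM (12.9 to 83.6) overlapped. For the cyclins, Ccnd1 to Cdk4 had medians of 2.02 in AG, 0.676 in AGM, 4.60 in TI and 2.22 in TIM. Ccne1 to Cdk2 rose from 0.335 in AG over 1.25 in AGM and 2.78 in TI to 10.1 in TIM. By the medians, Cdkn2c was thus lowest, and Cdkn1b and Ccne1 highest, relative to their kinase genes in TIM.

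**Figure D4:**
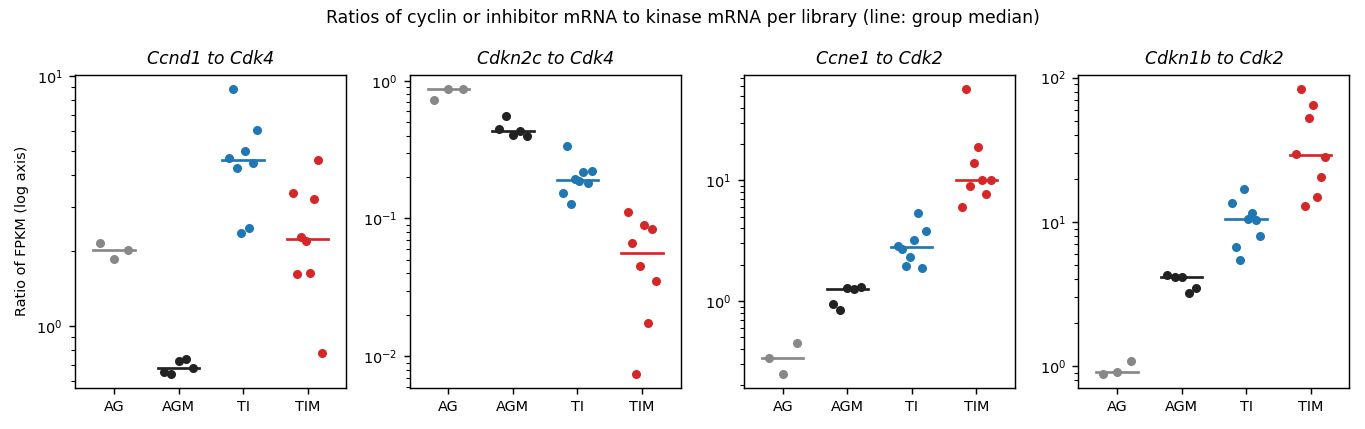
Ratios of FPKM between a cyclin or inhibitor gene and its kinase gene (log axes), with 1 point per library and a line at the group median. Cdkn2c to Cdk4 stepped down from AG (median 0.868) to TIM (0.0558) with no overlap of the groups, and Cdkn1b to Cdk2 stepped up from 0.913 to 28.9.

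The change from gland to tumor was compared between the models by setting TIM vs AGM against TI vs AG. These contrasts differ in more than MYCN, since AG was CRE - and AGM CRE +, and TIM held fewer IGF2BP1 copies than most TI samples. The part of each cannot be told apart. Of the 9 genes, 1 gave a higher value in TIM vs AGM, Ccnd2, against 3.85% of all genes, and none a lower one (6.15%). Ccnd2 fell by 2.098 in TIM vs AGM and fell by 3.26 in TI vs AG, a difference of 1.16 ± 0.19 (limma FDR 9.92e-05). Tumors of both models were at like levels, and the groups of glands were not. The call was lost with a pseudocount of 0.1 FPKM (1.23, limma FDR 0.131) and with limma-voom (1.46, limma FDR 0.115). Fold changes of the other 8 genes differed by -0.53 to 0.49 (limma FDR 0.373 or more). With recomputed FPKM this contrast had 654 higher and 404 lower calls over all genes in place of 392 and 626, and a median of 0.29 in place of -0.01.

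The neighbours of these genes in the pathway were counted from lists. For each list, the shares to set beside its counts of higher and lower genes are those of all tested genes, 24.6% and 27.7% in TI vs AG, 22.5% and 28.5% in TIM vs AG, 14.6% and 14.0% in AGM vs AG, 10.0% and 12.9% in TIM vs TI, and 31.9% and 33.4% in TIM vs AGM. Several counts were near these shares. Genes that reached 1 FPKM in tumors alone or in glands alone had to differ to some degree. Where such a gene is named, its tumor to gland difference is given as levels with no test. The counts and medians of the lists include these genes, so those of tumors against glands carry that limit. Of 5 other CDK inhibitor genes, 2 were higher and 1 was lower in TI vs AG, 1 was higher in TIM vs AG and 2 were higher in AGM vs AG. Cdkn1a, the gene of p21, rose from 3.54 ± 0.381 FPKM in AG to 15.8 ± 6.37 in TI (1.80 ± 0.29, limma FDR 1.88e-05) and was lower in TIM than in TI (5.395 ± 1.95 FPKM, -1.36 ± 0.22, limma FDR 0.000204). Cdkn1c, the gene of p57, went from 6.31 ± 0.759 FPKM in AG to 139 ± 32.8 in AGM (4.23 ± 0.71, limma FDR 8.73e-05) and 0.241 ± 0.149 in TI (-2.56 ± 0.65, limma FDR 0.00220), with 10.1 ± 11.5 in TIM. AG and AGM came from different runs, so run and group cannot be told apart in its AGM value. Cdkn2d, an INK4 gene like Cdkn2c, rose from 2.25 ± 0.247 FPKM in AGM to 6.64 ± 2.11 in TIM (1.19 ± 0.17, limma FDR 3.15e-06), opposite to Cdkn2c.

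Of 8 genes of CDK activation (the CDK-activating kinase, CDC25 phosphatases, Wee1 and Cdc37), 4 were higher and 2 were lower in TI vs AG, 2 and 1 in TIM vs AG, and 4 and 0 in TIM vs AGM, with 4 of the 8 at 1 FPKM in tumors alone. Cdc25c, a phosphatase that acts at mitotic entry, one of these 4, was at 0.0331 ± 0.0109 FPKM in AG and 2.16 ± 1.14 in TI. Cdc37, the HSP90 co-chaperone that loads CDK4, fell from 6.56 ± 0.112 FPKM in AG to 4.62 ± 0.896 in TI (-0.44 ± 0.12, limma FDR 0.00435). It was also at 4.72 ± 0.461 FPKM in the AGM glands and 4.76 ± 0.548 in TIM, and TIM vs AGM gave 0.01 ± 0.10 (limma FDR 0.954). Of 11 genes for the turnover of G1 cyclins and p27, Skp2 was below the filter and the other 10 split into 2 higher and 3 lower in TI vs AG and 1 higher and 3 lower in TIM vs AG. Skp1, a core subunit of the SCF ubiquitin ligase, fell from 31.8 ± 0.634 FPKM in AG to 14.6 ± 2.16 in TI (-1.08 ± 0.21, limma FDR 0.000161), and Rbx1, its RING subunit, rose from 4.15 ± 0.0919 to 8.19 ± 0.853 (0.83 ± 0.16, limma FDR 0.000149). Cks1b, the SKP2 cofactor in p27 removal, was at 8.23 ± 0.450 FPKM in AG, 2.22 ± 0.394 in AGM, 14.0 ± 7.68 in TI and 8.65 ± 6.76 in TIM, and was higher in TIM than in AGM (1.20 ± 0.45, limma FDR 0.0251).

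Of 13 pocket protein and E2F genes, Rbl1 and E2f7 were below the filter, and of the other 11, 5 were higher and 2 were lower in TI vs AG, none and 2 in TIM vs AG, and none and 4 in AGM vs AG. Of the 11, 4 reached 1 FPKM in tumors alone and 2 in glands alone. E2f2, of the former, was at 0.790 ± 0.0870 FPKM in AG and 3.55 ± 2.04 in TI, and was lower in TIM than in TI (1.31 ± 0.857 FPKM, limma FDR 0.0188). Tfdp2, an E2F partner that reached 1 FPKM in AG alone, was at 2.79 ± 0.177 FPKM in AG, 0.672 ± 0.183 in AGM, 0.262 ± 0.0865 FPKM in TI tumors and 0.226 ± 0.0710 FPKM in TIM tumors. Of 20 S phase genes, targets of E2F among them, 14 were higher and none was lower in TI vs AG, 3 and 1 in TIM vs AG, 0 and 2 in AGM vs AG, 0 and 4 in TIM vs TI, and 15 and 0 in TIM vs AGM, with 10 of the 20 at 1 FPKM in tumors alone. Rrm2, a subunit of ribonucleotide reductase and 1 of these 10, was at 0.727 ± 0.170 FPKM in AG and 21.1 ± 18.0 in TI. The median log2 fold change of the 20 genes was 0.96 in TI vs AG, 0.41 in TIM vs AG, -0.45 in AGM vs AG, -0.53 in TIM vs TI and 0.89 in TIM vs AGM. Since 10 of the 20 passed the filter through tumors alone, counts and medians of tumors against glands had to lean to higher values in tumors.

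Tumors of 1 model differed among themselves, and G1 genes followed this to unequal degrees. An S phase score, the mean log2(FPKM + 1) of the 20 S phase genes with none of the G1 genes in it, was 2.26 ± 0.634 in TI (SD, n = 8; 1.20 to 3.19) and 1.69 ± 0.744 in TIM (n = 8; 0.406 to 2.51), against 1.14 ± 0.0385 in AG and 0.691 ± 0.0602 in AGM. Each G1 gene was correlated with the score within TI and within TIM by exact permutation tests, adjusted over 40 coefficients (10 genes, 2 models, Pearson and Spearman), of which 19 passed. Within TI, Ccnd1 had a Pearson r of 0.95 and Spearman rho of 0.93 (n = 8, exact permutation p = 0.00124 and 0.00223, adjusted p = 0.0155 for both). In TIM the values were 0.79 and 0.60 (exact permutation p = 0.0230 and 0.132, adjusted p = 0.0484 and 0.204). Cdk4 followed the score in both models, with r 0.89 and rho 0.86 in TI (exact permutation p = 0.00233 and 0.0107, adjusted p = 0.0155 and 0.0443) and r 0.87 and rho 0.83 in TIM (exact permutation p = 0.00580 and 0.0154, adjusted p = 0.0290 and 0.0473).

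Cdk2, which was lower in tumors than in AG, nevertheless rose with the score among tumors, with r 0.97 and rho 0.93 in TIM (exact permutation p = 0.000198 and 0.00223, adjusted p = 0.00794 and 0.0155) and r 0.79 and rho 0.81 in TI (exact permutation p = 0.0168 and 0.0218, adjusted p = 0.0479 and 0.0484). Ccne2 in TIM gave r 0.84 and rho 0.90 (exact permutation p = 0.000694 and 0.00456, adjusted p = 0.0139 and 0.0261). In TI, Ccne1 and Ccne2 each gave r 0.82 (exact permutation p = 0.0133 and 0.0129, adjusted p = 0.0443 for both). Their rho of 0.79 missed the threshold (exact permutation p = 0.0279, adjusted p = 0.0532). Ccne1 in TIM gave r and rho of 0.71 (exact permutation p = 0.0735 and 0.0576, adjusted p = 0.118 and 0.0960). Ccnd3 fell with the score in TIM (r -0.85 and rho -0.81, exact permutation p = 0.0119 and 0.0218, adjusted p = 0.0443 and 0.0484). Cdkn2c rose with it in TI (r 0.77 and rho 0.81, exact permutation p = 0.0187 and 0.0218, adjusted p = 0.0484 for both), while in TIM r was 0.10 and rho -0.02 (exact permutation p = 0.825 and 0.977). Cdkn1b had r -0.01 in TI and 0.59 in TIM (exact permutation p = 0.985 and 0.137). Whether coefficients differ between TI and TIM was not tested.

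Without the 2 tumors farthest from the median score (n = 6), none of the 20 Pearson coefficients passed the adjusted threshold, with fewer tumors to test. Coefficients were still 0.94 for Ccnd1 in TI and 0.94 for Cdk2 in TIM (exact permutation p = 0.0111 for each, adjusted p = 0.111), and 0.88 for Cdk2 in TI (exact permutation p = 0.0472, adjusted p = 0.185). Those of Cdk4 went down to 0.69 in TI and 0.60 in TIM (exact permutation p = 0.114 and 0.2, adjusted p = 0.292 and 0.444). Lower values came for Ccnd1 in TIM (0.27) and for Ccne1 and Ccne2 in TI (0.33 and 0.37; exact permutation p = 0.669, 0.528 and 0.478). With a pseudocount of 0.1 FPKM, the score and the choice of the 2 farthest tumors were made anew. This gave 0.25 for Ccnd1 in TIM, but 0.82 and 0.71 for Ccne1 and Ccne2 in TI. For Cdk4 it gave 0.84 in TI and 0.59 in TIM. The low values of Ccne1 and Ccne2 in TI were thus not kept. Whether the pseudocount or the choice of tumors made the difference was not tested. The low end of TIM was library 5 (score 0.406), which also had the lowest Ccnd1, Cdk4, Ccne1, Ccne2, Cdk2 and Cdkn1b of the 8 TIM libraries and the highest summed Schwann, adipocyte, adrenal cortex, endothelial and chromaffin and sympathetic markers (the last 4718 FPKM). Libraries 2 and 4, next in the order of low scores (0.921 and 1.39), had the next highest chromaffin and sympathetic sums (3515 and 1851 FPKM). The low end of TI was its library 4 (score 1.20), with the lowest Ccnd1, Cdk4, Ccne1, Ccne2 and Cdkn2c of the 8 TI libraries. It also had the highest summed fibroblast and endothelial markers of TI (78.0 and 27.1 FPKM). The part of these markers in the correlations was not tested.

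**Figure D5:**
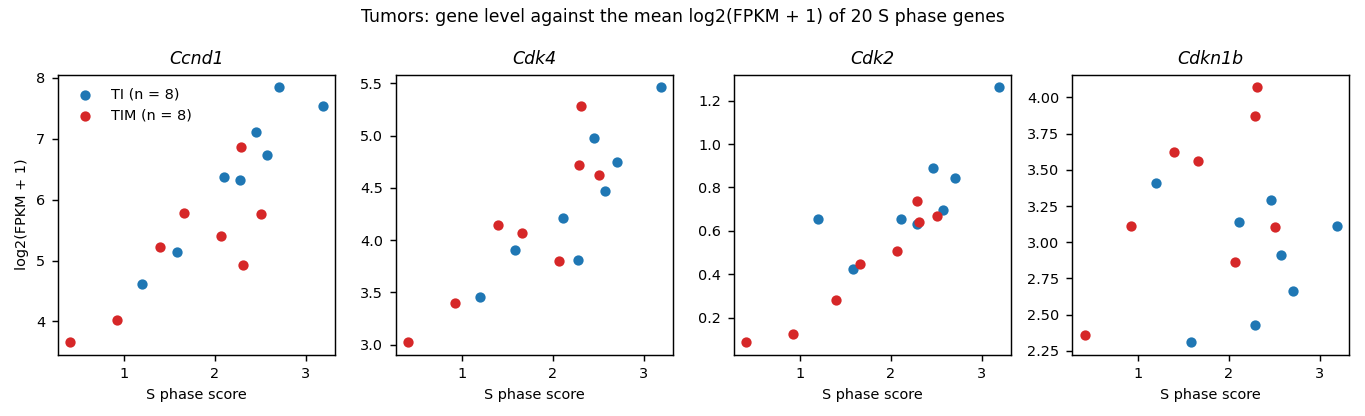
Levels of Ccnd1, Cdk4, Cdk2 and Cdkn1b (y axis, log2(FPKM + 1)) against the S phase score (x axis, mean log2(FPKM + 1) of 20 S phase genes), with 1 point per tumor (TI n = 8, TIM n = 8). Ccnd1 in TI (r 0.95) and Cdk2 in TIM (r 0.97) lie near a line, and Cdkn1b in TI (r -0.01) does not.

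The genes most like a G1 gene over the 16 tumors were sought among 10071 tested genes, leaving out those above 1000 FPKM, by Pearson's r of log2(FPKM + 1), as a description. Ccnd1 was followed most closely by E2f8 (r 0.96; 0.97 within TI and 0.92 within TIM), an E2F factor of the S phase program, by Timeless (0.95; 0.95 and 0.91), a replication fork protein, and by Cdca8 (0.94; 0.98 and 0.86), the borealin subunit of the chromosomal passenger complex. Among the genes that followed Cdk4 were H1f10 (0.95; 0.96 and 0.98), a linker histone, and Cdca3 (0.95; 0.96 and 0.97). The leading genes of Ccne1 were Ecrg4 (0.90; 0.12 and 0.88), Ldoc1 (0.89; 0.29 and 0.89) and Shisal2b (0.83; 0.03 and 0.73), which followed it in TIM far more than in TI. Those of Cdkn2c were Tsen34 (0.93; 0.90 and 0.66), Zfp410 (0.91; 0.88 and 0.45) and Zbtb48 (0.90; 0.96 and 0.42). For Ccnd1, Ccne1 and Cdkn2c, called different between TI and TIM, the r over all 16 tumors holds the difference between the models as well.

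Each of the 10 genes overlaps at least 1 other annotated gene, for example Ccnd1 with LTO1, Cdk4 with Tspan31 and Marchf9, and Cdk2 with Pmel, all on the opposite strand. The libraries were strand-specific, but whether the counting used strand was not given in the sources used here. Without it, reads of such pairs cannot be told apart.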

How the data were processed

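Gene expression was measured by RNA-seq in 24 mouse samples of 4 groups. The authors aligned reads with HISAT2 2.1.0 to mm39, and the submitters' processing notes name cutadapt 2.8, SAMtools 1.10, featureCounts 2.0.0 and edgeR 3.40. The authors removed a batch effect from the counts (ComBat-seq), scaled them by the trimmed mean of M-values and deposited FPKM, with gene lengths in bases as other values. Log2 fold changes and p-values of the authors' own comparisons, deposited in the same table, were not used. ComBat-seq moves counts by quantiles of a fitted model, so low values can shift.

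FPKM times length were whole multiples of 1 step per column (100.0% of values within 0.1 read). These recovered reads, 12334076 to 23683176 per library outside 126 genes above 1000 FPKM, are corrected values and cover counting error only. Genes that reached 1 FPKM in 3 or more libraries were tested on log2(FPKM + 1) with limma 3.58.1 in R 4.3.3 (lmFit, then eBayes with its trend option), using all 24 libraries, no covariates and an FDR threshold of 0.05. The authors used edgeR on their counts. As the deposited values are batch-corrected FPKM, limma was the main test here and limma-voom on the recovered reads an alternative. Code was tested on simulated data. Exact permutation tests used SciPy 1.17.1. Positions are from GENCODE M39 on GRCm39, and promoters from RefSeq. Alternatives were a pseudocount of 0.1 FPKM, other filters, the compared groups alone, recomputed FPKM, limma-voom, and each library left out. Removing the 126 highest genes was added after seeing the data. All 10 genes, and per list the genes with the highest or lowest fold change in a contrast, could be named; of these the text gives a selection chosen after their values were seen. The genes and lists were chosen with earlier results of these data known. A gene among those most like Cdk4 is not reported here.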

Additional observations from a re-analysis of the deposited data

Results flagged for a closer look

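In TIM, 1 library stood apart from the others for Ccnd1 (library 7, 116 FPKM, with the next at 53.7) and another for Ccnd3 (library 5, 3.52 FPKM, with the next at 1.71), each by a gap too wide for the range of the group (Dixon's criterion). Of 30 groups checked in this way 2 were picked out, and chance alone picks about 1 in 20. For Ccnd2 the gland to tumor change differed between TIM vs AGM and TI vs AG, by 1.16 on the log2 scale (interaction term, limma FDR 9.92e-05). Ccnd2 was lower in AGM than in AG, which came from different runs, so that run and group cannot be told apart.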

How the results depend on the processing

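Of 1080 fold changes of tested G1 genes under the alternatives (54 gene and contrast pairs), 1014 kept their direction and their side of the threshold, 44 lost a call, 13 gained one and 9 turned their sign. The number of G1 genes called (8 in TI vs AG, 6 in TIM vs AG, 3 in AGM vs AG, 4 in TIM vs TI, 7 in TIM vs AGM and 1 for the difference between TIM vs AGM and TI vs AG) fell to 2, 1, 0, 1, 2 and 0 when 1 FPKM was required in every library, which leaves fewer of these genes to test. With a pseudocount of 0.1 FPKM, 1 gene was called in AGM vs AG and 0 in the difference, and with limma-voom 0 in the difference. With only the groups compared, 7 were called in AGM vs AG and 2 in TIM vs TI. With libraries left out in turn, calls ranged from 6 to 9 in TI vs AG, from 1 to 3 in AGM vs AG (1 without AG library 1 or 2), and from 2 to 4 in TIM vs TI (2 without TI library 2, 3 or 7 or TIM library 2 or 4). Cdk6 with all recovered reads as library size differed by -4.16 RPM in TIM vs TI (exact permutation test, adjusted p = 0.000777) and -0.4005 RPM in TIM vs AGM (exact permutation test, adjusted p = 0.261). Without the 2 tumors farthest from the median S phase score, 0 of the 11 Pearson coefficients past the threshold stayed past it. Without the 126 highest genes no call of a G1 gene changed. The cause of the other changes was not tested.

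Signs turned only for values that had not passed the threshold. Ccnd2 in TIM vs TI ranged from -0.0784 to 0.0063 with libraries left out. In the difference between TIM vs AGM and TI vs AG, Ccnd3 became 0.1484 with recomputed FPKM and 0.2124 with limma-voom, Cdk4 0.2159 and 0.2242 (and -0.277 to 0.0444 with libraries left out), and Ccne2 0.4714 with limma-voom. Pearson's r with the S phase score became 0.4337 for Cdkn1b in TI, -0.0623 for Cdkn1b in TIM and -0.1712 for Cdkn2c in TIM without the 2 farthest tumors, and -0.0106 for Cdkn2c in TIM with a pseudocount of 0.1 FPKM. No paired analysis was possible because the value columns carry no replicate numbers.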
